A study of Homo sapiens with 6 samples.

Results

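MIR146A and MIR3142 are a pair of microRNA genes on chromosome 5, and MIR3142HG is the long non-coding transcript that spans both. Members were all probe sets that the platform annotation gives 1 of these 3 symbols, a rule that found 2 probe sets, 1 for MIR146A and 1 for MIR3142, among 53617 probe sets and 14884 genes with a name. MIR3142HG had no probe set under its own symbol in the annotation used here and was not analysed here. The locus itself was chosen by the difference of its values between knockout and control arrays, so the difference between the groups is given for the members as a description and carries no test.

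RNA came from MDA-MB-231, a long-established breast carcinoma cell line of the triple-negative, mesenchymal kind. All 6 arrays were of cells kept for 72 h with 200 µM hydrogen peroxide, an oxidant. The 3 control arrays were of cells labelled control and the 3 knockout arrays of cells labelled NR1D1 KO. NR1D1 encodes REV-ERBα, a heme-binding nuclear receptor that represses transcription. Both groups received the oxidant, and no untreated array enters the comparison. The labels give neither the way the knockout was made, nor the number of clones, nor what the control cells carry, and the biological replicates are not described as separate cultures, so each p-value rests on array-to-array spread that may be partly technical. NR1D1 has no probe set under its own symbol in the annotation used here, so the knockout was not checked on its transcript. Values are the deposited log2 probe set values, with array medians of 5.18 to 5.22 and correlations over genes of 0.991 to 0.993 within and 0.982 to 0.985 between groups. Of 6 measured marker genes of the cell line limma called 2, in opposite directions: VIM was higher (9.01 in control and 9.35 in knockout arrays) and CD44 lower (9.86 and 9.51). AXL (11.82 and 12.03), MSN (11.88 and 11.97), S100A4 (8.17 and 8.05) and ZEB1 (8.09 and 8.01) were not called. ESR1 (5.19 and 5.19) and PGR (3.99 and 4.05), receptor genes of luminal breast cells, lay near or below the array medians. The luminal marker gene FOXA1 (5.05 and 4.96) lay below them too. Above them lay the luminal marker genes KRT18 (9.24 and 9.59), KRT19 (8.15 and 8.57) and GATA3 (7.48 and 6.75). So did EPCAM (7.22 and 7.62), KRT8 (6.59 and 6.88) and ERBB3 (5.92 and 5.51). Of 9 measured luminal marker genes 5 were called between the groups by limma, 2 lower (GATA3 and ERBB3) and 3 higher (EPCAM, KRT18 and KRT19). Over 7 measured leukocyte marker genes the mean log2 value of an array ranged from 6.59 to 6.71 in control and from 6.47 to 6.63 in knockout arrays, with 1 of the 7 called (CD68, lower). CD68 (10.87 in control and 10.42 in knockout arrays) and LAPTM5 (10.39 and 10.43) were far above the array medians, CSF1R (6.08 and 6.16) and SPI1 (5.88 and 5.93) above them, and CD14 (4.95 and 4.66), LYZ (4.195 and 4.198) and CD53 (4.13 and 3.89) below them. The part of these marker genes in the results on the locus was not tested.

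MicroRNAs are cut from hairpins in longer transcripts and guide silencing proteins to messenger RNAs that pair with the seed, the bases near the 5′ end. MIR146A is a textbook target of NF-κB, the transcription factor that Toll-like and interleukin 1 receptors switch on through the kinases IRAK1 and IRAK2 and the adaptor TRAF6. Its product, miR-146a-5p, represses IRAK1 and TRAF6, which makes it a brake on the same pathway. MIR3142 lies upstream of it in the same host transcript, and little is settled about what its product does.

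The mature products of the locus are shown here with the seed, bases 2 to 8, in capitals, beside miR-146b-5p, which is encoded on chromosome 10 and shares the seed of miR-146a-5p. All sequences are from RefSeq, build GRCh38.p14, and all lie on the plus strand. The mature miR-146a-5p lies at chr5:160485372-160485393, miR-146a-3p at chr5:160485408-160485429, miR-3142 at chr5:160474492-160474513 and miR-146b-5p at chr10:102436520-102436542.
hsa-miR-146a-5p: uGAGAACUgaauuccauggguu
hsa-miR-146b-5p: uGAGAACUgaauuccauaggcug
hsa-miR-146a-3p: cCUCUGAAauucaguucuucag
hsa-miR-3142: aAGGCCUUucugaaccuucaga
The seed of miR-146a-5p occurs in 3 of 2370 mature microRNAs of the table, the remaining one being miR-7153-5p. Counted from the 5′ end of miR-146a-5p, miR-146b-5p differs from it by G18A and U21C and is 1 base longer. The seed of miR-3142 occurs in 2 mature microRNAs, the other being miR-1245b-5p, and that of miR-146a-3p in 1. The 2 genes of the locus thus share no seed.

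The hairpins are shown with the mature sequences in capitals, to set out what the 2 probe sets are named for. The MIR3142 hairpin is at chr5:160474444-160474525 and the MIR146A hairpin at chr5:160485352-160485450.
MIR3142 hairpin: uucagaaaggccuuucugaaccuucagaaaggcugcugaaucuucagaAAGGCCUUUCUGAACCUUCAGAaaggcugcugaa
MIR146A hairpin: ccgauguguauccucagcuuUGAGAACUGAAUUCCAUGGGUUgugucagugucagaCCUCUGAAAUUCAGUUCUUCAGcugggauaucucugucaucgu
The MIR3142 hairpin, 82 bases long, is a direct repeat: its first 40 bases recur unchanged as bases 43 to 82. The mature sequence therefore occurs at 2 places in it, from base 7 and from base 49, of which the table annotates the latter. Each copy holds the 20-base stretch uucagaaaggccuuucugaa, which equals its own reverse complement. The hairpins are 10.8 kb apart and begin 6.2 kb (MIR3142) and 17.1 kb (MIR146A) after the annotated start of MIR3142HG.

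The start region of MIR3142HG is shown because both member probe sets were lower in the knockout and lie downstream of it. It covers chr5:160468001-160468300, from 250 bases before to 50 after the annotated start, and the capitals mark the letters that match the NF-κB consensus.
MIR3142HG promoter: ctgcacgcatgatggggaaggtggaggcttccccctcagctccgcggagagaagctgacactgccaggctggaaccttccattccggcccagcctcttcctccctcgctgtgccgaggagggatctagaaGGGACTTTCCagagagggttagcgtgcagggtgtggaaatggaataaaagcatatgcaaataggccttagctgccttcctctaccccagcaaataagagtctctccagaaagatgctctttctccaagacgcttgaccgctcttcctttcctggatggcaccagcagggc
The match, GGGACTTTCC, begins 120 bases before the start. Its letters were read from this start region, so finding them here was fixed, and their share elsewhere is a description. Searched on both strands, these letters occur in 67 of 35116 RefSeq start regions of the same length, or 0.191%, and the broader NF-κB consensus, which includes them, in 7.73%. The AP-1 motif TGANTCA (7.71% of start regions) and the half-site AGGTCA read by REV-ERBα and ROR receptors (4857 of the 35116) have no match in this window, which says only that these letters are not in it.

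MIR146A, the gene of the NF-κB brake, measured 7.26, 7.24 and 7.28 on the 3 control arrays and 5.85, 5.53 and 5.63 on the 3 knockout arrays (log2). The control arrays were nearly the same, within 0.0414 of each other, while the knockout arrays spread over 0.312. The groups did not overlap, and the lowest control array lay 1.40 above the highest knockout array. The means were 7.26 ± 0.0213 and 5.67 ± 0.159 (SD, n = 3 each), a log2 difference of -1.59 with a standard error of 0.0966, or 3.01-fold lower in the knockout.

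MIR3142, the upstream hairpin, measured 5.66, 6.25 and 6.24 on the control arrays and 4.19, 3.42 and 3.96 on the knockout arrays (log2). Control replicate 1 was the low array of its group and knockout replicate 2 of the other, and again the groups did not overlap, with a gap of 1.47. The means were 6.05 ± 0.339 and 3.86 ± 0.394 (SD, n = 3 each), a log2 difference of -2.19 with a standard error of 0.22, or 4.58-fold lower. The knockout values lie about the lower quartile of all probe sets, 3.91 to 3.94 on the arrays, and no detection calls were used here, so how much of this difference the array could resolve was not tested.

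**Figure D1:**
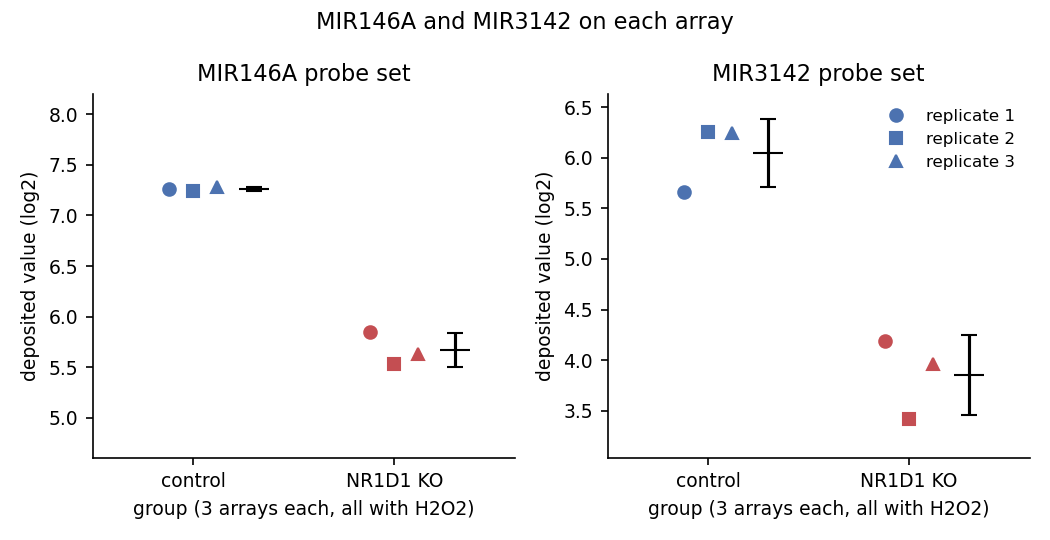
Deposited log2 values of the MIR146A and MIR3142 probe sets on the 3 control (blue) and 3 NR1D1 KO (red) arrays, with symbols for the replicate number and, in black, the group mean ± SD; both axes span the same range. In each panel all 3 knockout arrays lie below all 3 control arrays, and the MIR146A control values lie within 0.0414 of each other.

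For both genes knockout replicate 1 was the highest and knockout replicate 2 the lowest of the knockout arrays. Taken as deviations from the group means, which leave out the difference between the groups, the 2 probe sets had a correlation of 0.70 over the 6 arrays, given as a description since both are read from the same arrays. The arrays differed in size of deviation too: the deviation of control replicate 1 was -0.39 for MIR3142 but -0.006 for MIR146A. In genome-wide terms, MIR3142 had the 6th and MIR146A the 20th largest lower value among 14884 genes, where 0.618% of genes were 2-fold or more lower and 13.6% had knockout arrays all below the control arrays. These ranks restate what the locus was picked for. In RNA from whole cultures, fewer cells that make a transcript and less of it in each cell cannot be told apart. The amounts of the mature microRNAs were not analysed here, since the protocol describes whole-transcript cDNA from total RNA, and which bases the probes read is not given in the sources used here.

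No measured gene around the locus was called lower. Of the 10 measured genes on each side in RefSeq order on chromosome 5, 0 were lower and 2 higher by limma at an adjusted p of 0.05, a share of 10% where 9.49% of all genes were called. An unadjusted p under 0.05 was reached by 7 of the 20, beside 22.8% of all genes. Many RefSeq genes nearby had no named probe set, so these 20 reach far. Between the locus and the farthest of them lay 23 RefSeq genes upstream (IL12B-AS1) and 65 downstream (MIR218-2). Already 20 lay before CCNG1, the second measured gene downstream. Their log2 differences ran from -0.26 to 0.49 with a median of 0.12, beside 0.0039 over all genes. PTTG1, the gene of securin, which keeps sister chromatids together until anaphase, is the next gene upstream with no RefSeq gene between. It measured 5.71, 6.12 and 5.93 in control and 6.43, 6.56 and 6.25 in knockout arrays, so its groups did not overlap, in the opposite direction to the members (log2 difference 0.49 ± 0.126 SE, limma adjusted p = 0.0453). SLU7, a splicing factor gene next to it, measured 7.51 ± 0.117 and 7.39 ± 0.224 (SD, n = 3 each, limma adjusted p = 0.633). Downstream, LINC02159 measured 4.67 ± 0.349 and 4.62 ± 0.512 (limma adjusted p = 0.936), with a log2 difference of -0.052 that turned to 0.24 without knockout replicate 3 and 0.14 without control replicate 1, and the cyclin G1 gene CCNG1 8.02 ± 0.0718 and 8.25 ± 0.122 (limma adjusted p = 0.182, n = 3 each). The other call was ADRA1B, the α1B adrenergic receptor gene (log2 difference 0.33, limma adjusted p = 0.0449). PTTG1 kept its call when control replicate 2 or knockout replicate 3 was left out (1 called), and with any other array left out neither gene was called (0 called).

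**Figure D2:**
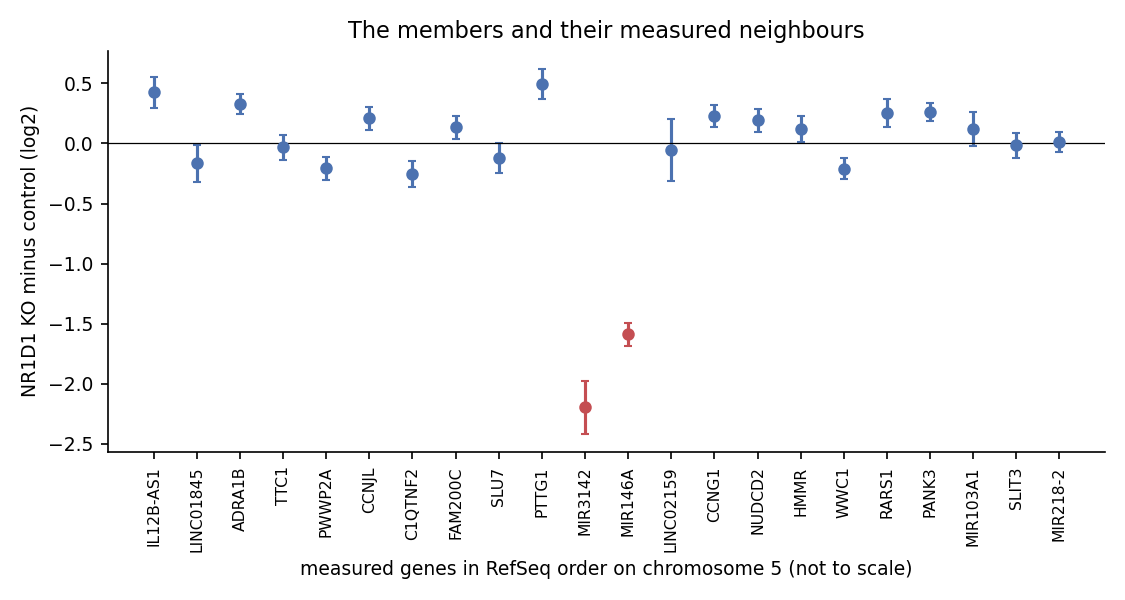
Log2 difference, NR1D1 KO minus control, of MIR3142 and MIR146A (red) and of the 10 measured genes on either side (blue) in gene order along chromosome 5, with bars of 1 standard error from limma; spacing is not to scale. The members lie at -2.19 and -1.59, and the 20 neighbours between -0.26 and 0.49.

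Most other microRNA genes were not called between the groups. Of 1070 measured, 22 were called by limma, 13 lower and 9 higher, which is 2.06% beside 9.49% over all genes (4.74% lower and 4.74% higher), with a median log2 difference of 0.0044. Many of their means lay below the lower quartile of all probe sets, 3.91 to 3.94 on the arrays. How small a difference the array could resolve there was not tested, so a low share called need not mean steady levels. The split by direction was not stable: leaving out control replicate 1, 2 or 3 gave 5, 8 or 7 lower and 11, 10 or 11 higher. It was 10 lower and 18 higher with knockout replicate 3 left out, and 12 and 14 with the trend and robust prior. The members had the lowest differences of all 1072 microRNA genes, followed by MIR505 at -1.07 and MIR3189 at -0.99. MIR505, a hairpin gene, measured 4.58, 4.47 and 4.94 in control and 3.76, 4.08 and 2.94 in knockout arrays, with knockout replicate 3 well below the others (limma adjusted p = 0.042). Leaving out knockout replicate 1 or any control array ended that call (adjusted p of 0.0761 to 0.128). MIR3189 measured 5.67, 5.55 and 5.55 in control and 4.73, 4.55 and 4.54 in knockout arrays, without overlap (1.98-fold lower, limma adjusted p = 0.000406).

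MIR146B, which encodes the other measured hairpin with the miR-146a-5p seed, was not called. It measured 4.38, 4.09 and 4.14 in control and 4.16, 3.99 and 4.14 in knockout arrays, and the groups overlapped (log2 difference -0.11 ± 0.103 SE, limma adjusted p = 0.61). Of 30 measured microRNA genes and hosts linked to inflammation, 0 were lower and 1 was higher by limma, with a median log2 difference of -0.028. That is 3.33% called, beside 9.49% of all genes (4.74% lower) and 2.06% of the other microRNA genes. MIR155, which like MIR146A is induced in inflammation, measured 4.46 in control and 4.52 in knockout arrays (limma adjusted p = 0.779), and MIR21 8.10 and 7.99 (limma adjusted p = 0.56). MIR155 and MIR21 were chosen after their values were seen. MIR146B and MIR155 lay below the array medians of 5.18 to 5.22, and how small a difference the array could resolve there was not tested. The 1 call was MIR181A2HG, the host of microRNAs of the miR-181 family (1.71-fold higher, limma adjusted p = 0.0144). The calls were 3, with 2 lower, without knockout replicate 1, with quantile normalization, without the dimmest 25% of genes or with trend and robust settings.

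**Figure D3:**
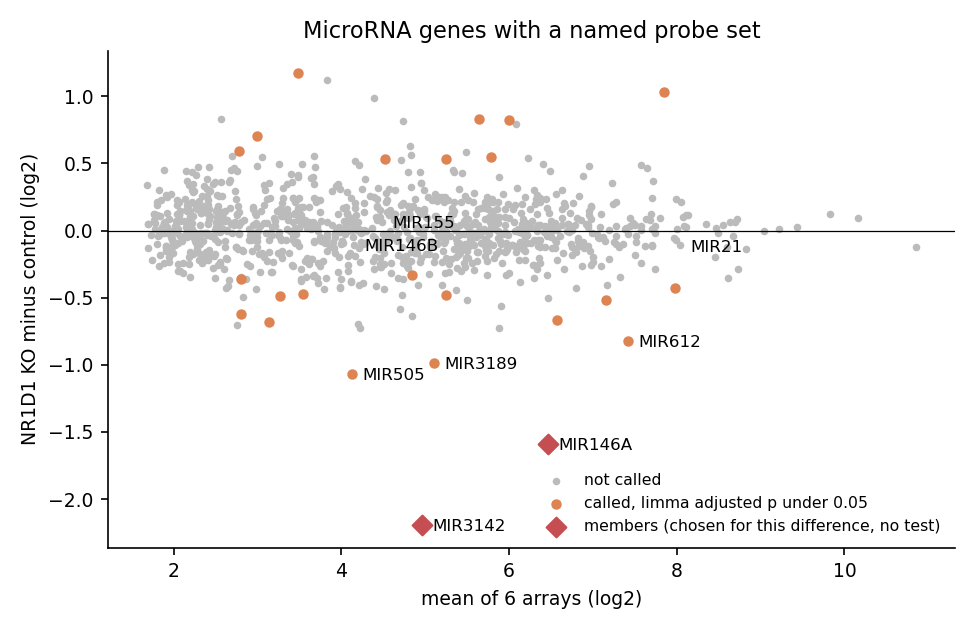
Log2 difference, NR1D1 KO minus control, against the mean log2 value over 6 arrays for 1072 microRNA genes: the 2 members (red diamonds), genes called by limma at an adjusted p of 0.05 (orange) and the rest (grey). MIR3142 and MIR146A lie at -2.19 and -1.59, below MIR505 at -1.07, and MIR146B lies near 0.

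Since the host of the members had no named probe set, other microRNA genes inside a single measured gene of the same strand were set beside their hosts. There were 267 such pairs over 236 hosts, and the log2 differences of microRNA and host had a correlation of 0.358 over pairs, which share their arrays and in part their host. In 5 pairs limma called both genes, and in all 5 both went the same way. Apart from MIR3189, MIR646HG and MIR924HG, the genes of these pairs were chosen after their values were seen. MIR3189 lies in GDF15, the gene of a stress-induced cytokine, and the log2 differences were -0.99 and -1.42. MIR646 and its host MIR646HG differed by -0.66 and -0.51 (limma adjusted p = 0.0287 for each), and MIR4802 and RBM47, an RNA-binding protein gene, by -0.68 and -0.69. The higher pairs were MIR924 in MIR924HG (0.82 and 0.38) and MIR581 in ARL15 (0.53 and 0.995). MIR646HG and MIR924HG were each called with all 6 arrays, but MIR646HG missed the threshold without any 1 array other than knockout replicate 2, and MIR924HG without any 1 of the 6 arrays (adjusted p of 0.0593 to 0.0969 and 0.063 to 0.128). In 31 of the 36 pairs with a called host the microRNA gene was not called, and in 22 of the 36 microRNA and host lay on the same side of 0. Of 26 measured microRNA host transcripts 1 was lower and 2 higher, 11.5% beside 9.49% of all genes, and leaving out any 1 array but knockout replicate 2 left 1 call.

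**Figure D4:**
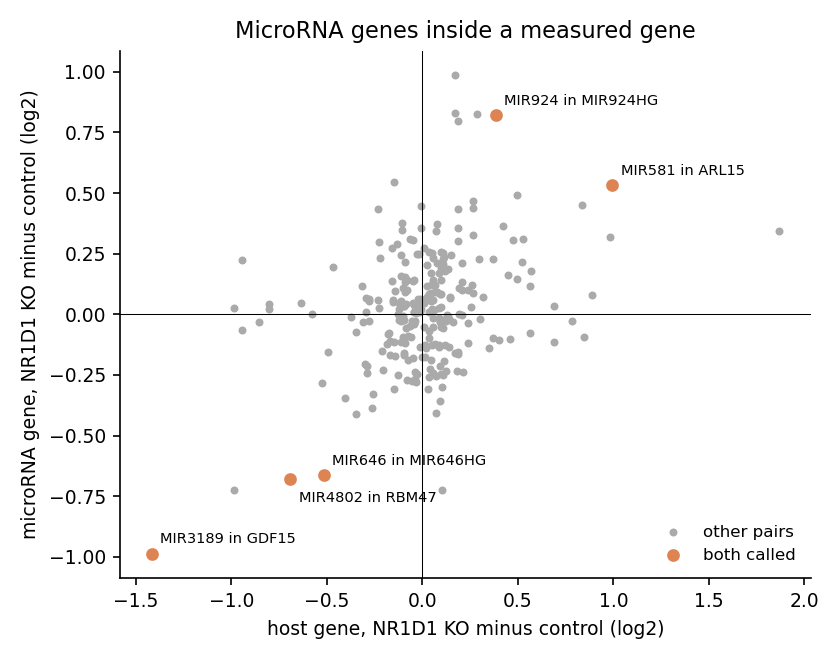
Log2 difference, NR1D1 KO minus control, of 267 microRNA genes against that of the single measured gene of the same strand that contains each; orange points are the 5 pairs in which limma called both genes. The 5 orange pairs lie in the lower left or upper right quadrant, while most grey points lie within 0.5 of 0 on both axes.

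Other neighbouring microRNA genes seldom both had large differences in 1 direction. Among 173 other pairs of adjacent measured hairpins on the same strand and at most 20 kb apart, 0 had both log2 differences at -0.5 or lower, and 1 had both at 0.5 or higher. That pair was MIR15B and MIR16-2, 59 bases apart, at 0.99 and 0.83, of which MIR16-2 was called by limma and MIR15B was not; both were chosen after their values were seen. The correlation of the 2 differences was 0.215 over the pairs, a description over hairpins that share arrays and, in clusters, a neighbour. Large differences were rare in single microRNA genes too: of the 1070 others, 1 was 2-fold or more lower and 3 were higher. The count of pairs therefore does not set the locus apart. The lower pair nearest the cut-off was MIR27A and MIR23A, at -0.499 and -0.445, also chosen after their values were seen.

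Several subunit and regulator genes of the NF-κB pathway were lower in the knockout too. Of 27 listed genes of subunits, kinases and regulators 15 were measured, and the inhibitor gene NFKBIA and the A20 gene TNFAIP3 were not among them. Of the 15 measured genes 8 fell and 0 rose by limma, 53.3% beside 4.74% lower over all genes. Of the 15, 13 had a difference below 0 (median -0.39 beside 0.0039). Without the dimmest 25% of genes 8 were lower and 1 higher, and with the trend and robust prior 9 and 1. NFKB1, which encodes the p105 and p50 subunit, measured 9.13, 9.22 and 9.32 in control and 8.12, 8.28 and 8.18 in knockout arrays. Its groups were far apart (2.04-fold lower, limma adjusted p = 0.000319). TRAF1, a signalling adaptor gene, was 2.43-fold lower (limma adjusted p = 0.000827), and TNIP1 and TNIP3, whose products bind the deubiquitinase A20 and restrain the pathway, were 2.03-fold and 1.85-fold lower (limma adjusted p of 0.000565 and 0.00175). RELA, the gene of the p65 subunit, measured 9.77 in control and 9.64 in knockout arrays (limma adjusted p = 0.367). NFKB2, TNIP1 and CYLD were the genes of the list with the motif GGGACTTTCC in a start region, as in MIR3142HG, out of 14 with a start region in the table, some with several. NFKB2, the p100 subunit gene, was 1.78-fold lower and CYLD, a deubiquitinase gene of the pathway, 1.55-fold lower (limma adjusted p of 0.00635 and 0.00953). RELA, NFKB2 and CYLD were chosen after their values were seen.

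Cytokine and adhesion genes that NF-κB drives were lower as well, with 11 of 22 measured lower and 0 higher by limma, 50% beside 4.74% lower over all genes, and a median log2 difference of -0.39. With the trend and robust prior 11 were lower and 1 higher. CXCL8 (-4.17), C3 (-2.40), IL24 (-2.37) and ICAM1 (-1.84) had the largest log2 differences. CXCL8, the neutrophil chemokine gene, measured 8.28, 8.44 and 8.41 in control and 4.27, 4.24 and 4.12 in knockout arrays, so far apart that every knockout array was below the median of its array (limma adjusted p = 2.59e-07). The complement gene C3 and the cytokine gene IL24 had differences near that of MIR3142, and ICAM1, the gene of a leukocyte adhesion molecule, lay between MIR3142 and MIR146A (limma adjusted p of 5.23e-05, 2.74e-05 and 5.23e-05). Of genes with start regions in the table, 8 of 16 in this list and 8 of 14 in the NF-κB list held the NF-κB consensus in at least 1 of them, beside 11.1% of the 10749 tested genes counted the same way. The letters GGGACTTTCC were held by 0 of the 16, beside 0.27% of those genes. Both lists were made of genes known for NF-κB, so a high share with the consensus was partly fixed by that choice. The part of the consensus in the lower values was not tested. In this list the consensus was held by CXCL2, CXCL10 and VCAM1, called lower, and by CXCL3, CXCL5, CXCL6, CCL20 and SELE, not called. It was not found for CXCL8, C3, IL24 or ICAM1, which may lack a start region in the table. In the NF-κB list its holders were NFKB1, NFKB2, TNIP1, TNIP3, CYLD and TRAF3, called lower, and REL and BCL3, not called. The genes newly named here were chosen after their values were seen.

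Upstream of NF-κB, receptors went both ways. Of 33 measured genes of interleukin 1 and Toll-like receptor signalling 8 were lower and 2 higher by limma, 24.2% and 6.06% beside 4.74% each over all genes, with a median log2 difference of -0.044. The 10 calls dropped to 5 when control replicate 1, control replicate 3 or knockout replicate 2 was left out, and to 6 for control replicate 2 or knockout replicate 3. The losses were among the lower genes: 3 or 4 were lower and 2 higher in these fits, and 4 lower and 3 higher with the replicate block. TLR2, the receptor for bacterial lipoproteins, measured 8.57, 8.73 and 8.69 in control and 6.98, 6.90 and 6.96 in knockout arrays, a gap wider than any spread within its groups (3.28-fold lower, limma adjusted p = 3.32e-05). TLR4, the endotoxin receptor, went the other way, with 6.22, 6.20 and 6.32 in control and 7.06, 7.05 and 6.90 in knockout arrays (1.69-fold higher, limma adjusted p = 0.00122). TLR6, which pairs with TLR2, was 1.53-fold higher (limma adjusted p = 0.00211).

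Of IRAK1 and TRAF6, the targets that miR-146a-5p is best known for, only IRAK1 was measured, and it was not called in the main fit. TRAF6 had no named probe set and was not analysed here. IRAK1 measured 8.51, 8.45 and 8.46 in control and 7.93, 8.11 and 8.36 in knockout arrays, all lower but unevenly so (log2 difference -0.34 ± 0.113 SE, limma adjusted p = 0.108). It passed with trend and robust settings (adjusted p = 0.0446) and without knockout replicate 3 (adjusted p = 0.035). IRAK2, a kinase of the same receptor complex, measured 8.55, 8.53 and 8.79 in control and 7.40, 7.40 and 7.65 in knockout arrays, without overlap (2.20-fold lower, limma adjusted p = 0.000564).

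Over the whole list of genes commonly given as miR-146a-5p targets, 6 of 22 measured were lower and 3 higher by limma, 27.3% and 13.6% beside 4.74% each, and the median log2 difference was 0.025 beside 0.0039 over all genes. Below 0 stood 10 of them and above 0 12. TLR2 and IRAK2, given above, belong to this list and to that of the receptors. NOTCH2, a receptor of cell-fate signalling, measured 11.20, 11.03 and 11.22 in control and 10.14, 10.13 and 10.03 in knockout arrays (2.07-fold lower, limma adjusted p = 0.000267). MMP16, a membrane-bound matrix metalloproteinase gene, was 2.02-fold lower (limma adjusted p = 0.000338). The 3 higher genes were TLR4, the chemokine receptor gene CXCR4 (1.86-fold, limma adjusted p = 0.0225) and UHRF1, of DNA methylation upkeep (1.44-fold, limma adjusted p = 0.00512), of which CXCR4 and UHRF1 were chosen after their values were seen. These are levels of RNA, and whether the listed genes hold a seed site in the cells' transcripts was not tested.

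**Figure D5:**
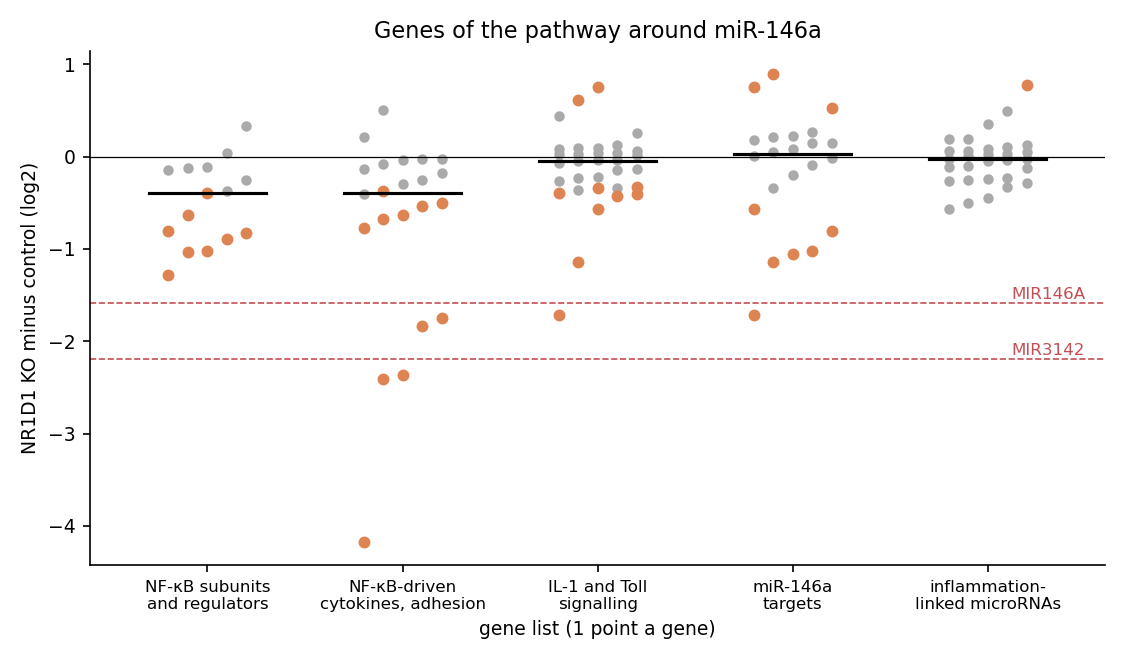
Log2 difference, NR1D1 KO minus control, of the measured genes of 5 lists (1 point a gene, orange where limma called it at an adjusted p of 0.05, black bars for list medians), with dashed lines at the values of MIR146A and MIR3142. Medians are -0.39 for the first and second lists and within 0.05 of 0 for the other 3, and some genes are in more than 1 list.

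The genes with the pattern closest to each member were ranked by the root mean square difference over the 6 arrays after each gene was centred on its own mean. The measure includes the difference between the groups, so it is a description. Closest to MIR146A was TLR2 (0.106 on the log2 scale), followed by ICOSLG, a costimulatory ligand gene (0.115), G0S2, an inhibitor of fat breakdown (0.121), CSF1, the macrophage growth factor gene (0.14), and ERN1, the sensor of endoplasmic reticulum stress (0.142). ICOSLG measured 7.35, 7.22 and 7.23 in control and 5.69, 5.44 and 5.82 in knockout arrays, and G0S2 9.13, 9.36 and 9.26 against 7.76, 7.73 and 7.53. Both thus had log2 differences close to that of MIR146A, -1.62 and -1.57 beside -1.59. Closest to MIR3142 were COXFA4L3 (0.261), the acute phase gene SAA1 (0.309), the cathepsin S gene CTSS (0.318), the peptidase gene DPP4 (0.332) and the cytokine gene IL24 (0.339). SAA1 measured 9.03 ± 0.204 in control and 7.38 ± 0.37 in knockout arrays (SD, n = 3 each), and like MIR3142 it was lowest in control replicate 1 and knockout replicate 2 of their groups. The 2 sets of 5 shared no gene. Of the 10 genes, 7 had a start region in the table and 0 of these held the NF-κB consensus, beside 11.1% of all tested genes with a start region. With 7 genes, 0 cannot be set apart from that share. CSF1 and IL24 are in the list of NF-κB-driven cytokine and adhesion genes above.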

How the data were processed

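Total RNA of 3 control and 3 NR1D1 KO samples was made into cDNA with a whole-transcript kit and biotin-labelled, per the labels' protocols. The authors deposited 1 log2 value per probe set and array; the log2 scale was inferred from the range, and the arrays' quantiles are nearly the same. How the authors corrected, normalized and summarized the probe signals was not found in the labels. Of 53617 probe sets, 16098 had 1 symbol, 0 several and 37519 none, and all 16098 matched RefSeq (GRCh38.p14) by gene ID, which served for names and gene order. For 779 genes with several probe sets the one with the highest mean was used. Groups were taken from the titles and the comparison fitted by limma 3.58.1 (R 4.3.3; eBayes on lmFit, two-sided), with Benjamini-Hochberg adjustment over 14884 genes and a threshold of 0.05 ("called"). No gene was filtered. The fit was tested on simulated data. The number of arrays limits the precision.

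The members and gene lists were chosen with earlier results of these data known. Not every listed gene had a named probe set. Measured were 15 of 27 for NF-κB, 22 of 28 cytokine and adhesion genes and 33 of 39 interleukin 1 and Toll-like receptor genes. For miR-146a-5p targets it was 22 of 37, and for inflammation-linked microRNA genes 30 of 38. Named genes were the members, IRAK1, TRAF6 and MIR146B, up to 4 called genes of each list with the largest change (or the 2 with the smallest p), the 2 measured genes next to the locus on each side, and the 5 genes most like each member; others are named as chosen after their values were seen. Host and hairpin pairs and motifs were added after the values were seen. Sequences were taken from RefSeq tables. Plots come from matplotlib 3.10.9 (Python 3.11.15). Alternatives were quantile normalization, median centring, leaving out the dimmest 25% of genes, the mean of a gene's probe sets, limma's trend and robust prior, the replicate number as a block, and each array left out in turn.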

Additional observations from a re-analysis of the deposited data

How the results depend on the processing

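Without any 1 array, the log2 difference of MIR146A ranged from -1.68 to -1.52 and that of MIR3142 from -2.39 to -1.98. The genes called over the whole table, 1412 with all arrays, ranged from 723 to 1049 (723, 789 and 859 when control replicate 3, 1 or 2 was left out and 813 for knockout replicate 2). The same ranges were 5 to 10 for interleukin 1 and Toll-like receptor genes, 7 to 8 for NF-κB, 8 to 10 for cytokine and adhesion genes, 8 to 10 for miR-146a-5p targets, 16 to 28 for other microRNA genes, 1 to 3 for inflammation-linked microRNA genes, 1 to 2 for host transcripts and 0 to 1 for the neighbours. Inflammation-linked microRNA genes had 3 calls with quantile normalization, without the dimmest 25% of genes and with the trend and robust prior. The neighbours had 1 call with quantile normalization and 4, all higher, without the dimmest 25% of genes. LINC02159, between -0.24 and 0.24 over these omissions, turned to 0.24 without knockout replicate 3 and 0.14 without control replicate 1; the cause was not tested. Over 28 named genes, 294 values kept their direction and side of the threshold, 33 no longer passed, 2 newly passed and 2 reversed.

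Deviations from the group means showed no pairing of the arrays by replicate number. Their correlations were 0.055, 0.068 and -0.106 for same-numbered arrays and from -0.128 to 0.079 for arrays of different numbers. Whether same-numbered arrays shared a culture or a batch was not tested. With the replicate block 1050 genes were called, the differences of the members were -1.59 and -2.19, and 7 interleukin 1 and Toll-like receptor genes (4 lower, 3 higher), 2 inflammation-linked microRNA genes and 1 neighbour were called. No detection calls or unprocessed intensities were used, so the lowest values, such as those of MIR3142 in the knockout, have an unknown floor.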

Other observations

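The 9 other microRNA genes called higher by limma included MIR548X2, MIR1299 and MIR16-2. MIR548X2, a hairpin of the repeat-derived miR-548 family, measured 2.89 ± 0.454 in control and 4.06 ± 0.543 in knockout arrays, below the lower quartile of all probe sets in control arrays (SD, n = 3 each, 2.25-fold higher, limma adjusted p = 0.0428, lost without control replicate 1, control replicate 2, knockout replicate 1 or knockout replicate 3, at 0.104 to 0.127). The value is that of the brighter of its probe sets, and with their mean the log2 difference was 0.57 in place of 1.17 (limma adjusted p = 0.0221). MIR1299 measured 7.09, 7.22 and 7.69 in control and 8.66, 8.34 and 8.10 in knockout arrays (2.05-fold higher, limma adjusted p = 0.0111). MIR16-2, a hairpin of the miR-15 and miR-16 family that was chosen after its values were seen, measured 5.22 ± 0.257 in control and 6.06 ± 0.169 in knockout arrays, without overlap (SD, n = 3 each, 1.78-fold higher, limma adjusted p = 0.00943).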
